A study of Mus musculus with 6 samples.

Results

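Abundant long noncoding RNAs and the host RNAs of small nucleolar RNAs (snoRNAs) were examined in LSK cells, the lineage-, Sca1+ and cKit+ fraction of bone marrow that holds haematopoietic stem cells and early progenitors. The RNAs were Malat1, Neat1, Gas5, Snhg1, Snhg3, Snhg5, Snhg6, Snhg8 and Snhg12, chosen by gene symbol. Every non-control probe whose gene name equals 1 of these 9 symbols was taken, which gave 13 of the 56605 probes of the array. These belonged to 8 of the 9 RNAs. No probe carried the name Malat1 or a synonym of it, so Malat1 is not analysed here.

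Cells were compared between control mice (Atg5w/w;VaviCre+) and Atg5f/f;Vav mice (Atg5f/f;VaviCre+), both C57BL/6, at P6 to P8. Both groups carry the iCre transgene, which the Vav promoter drives in blood-forming cells, so they differ in the floxed Atg5 allele. Atg5 is needed to form autophagosomes. Each group has 3 arrays with 1 sample each. The labels leave it unstated if a sample is 1 mouse or a pool, or if samples are separate animals, so SD, SE and p-values measure the spread between arrays.

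A snoRNA guides the chemical modification of ribosomal and other RNAs, and most snoRNAs are cut out of the introns of a host transcript. The spliced hosts named Snhg and Gas5 (growth arrest-specific 5) hold little conserved coding sequence. Many start with a run of pyrimidines (a 5' terminal oligopyrimidine, or TOP, sequence) and are degraded by nonsense-mediated decay once they are translated. Neat1 is the scaffold of paraspeckles, nuclear bodies, and has a short and a long isoform that share their 5' end. Malat1, its neighbour in the genome, is found at nuclear speckles.

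A probe on these arrays is a 60-base oligonucleotide, and the probes below are some of those on which the differences rest. Coordinates are those of the array's design, on mm9, and each sequence is written 5' to 3'. In the Snhg5 probe at chr9:88415923-88415982 (minus strand), capitals mark AATAAA, the hexamer at which many transcripts are cleaved and polyadenylated. It was searched on the probe strand only, stood in this 1 of the 13 probes, and stood in 9.77% of all 56605 probes. The other Snhg5 probe lies at chr9:88417098-88417157 on the same strand.
Snhg5, upstream probe: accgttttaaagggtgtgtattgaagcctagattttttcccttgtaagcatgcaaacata
Snhg5, downstream probe: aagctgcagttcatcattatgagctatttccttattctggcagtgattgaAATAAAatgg

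The Neat1 probes lie 255 bases apart at chr19:5844378-5844437 and chr19:5844123-5844182 on the minus strand. A further probe, 1724 bases downstream of the first on the same strand (chr19:5842654-5842713), carries the gene name NEAT1 in capitals. It falls outside the symbols above, was chosen after its values were seen, and is shown because its direction differed.
Neat1, upstream probe: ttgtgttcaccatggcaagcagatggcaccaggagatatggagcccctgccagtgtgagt
Neat1, downstream probe: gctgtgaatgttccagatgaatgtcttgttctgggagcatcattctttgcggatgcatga
NEAT1: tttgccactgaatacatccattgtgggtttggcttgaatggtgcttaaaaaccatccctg

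The first Gas5 probe has 60 bases but spans 507 bases of the plus strand (chr1:162967641-162968147), so it crosses at least 1 splice junction. The second lies at chr1:162968590-162968649. A probe named only by an interval (chr1:162965309-162970704, plus strand) starts 75 bases into that span, at chr1:162967716-162967775, beyond the reach of 60 matched bases from either end, so it lies in sequence that the junction probe skips. It too was chosen after its values were seen.
Gas5, junction probe: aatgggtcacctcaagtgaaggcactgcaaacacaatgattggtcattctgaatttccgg
Gas5, second probe: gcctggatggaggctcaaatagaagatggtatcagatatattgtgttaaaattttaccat
Gas5, probe in the skipped stretch: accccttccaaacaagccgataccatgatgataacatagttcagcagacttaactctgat

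All values are log2 intensity minus the array's 75th percentile over non-control spots, so 0 is the level of the 75th percentile, and a probe is set only against itself. The only Atg5 probe, at chr10:44083997-44084056, read 1.10, 0.93 and 1.06 in control and 1.46, 1.51 and 1.74 in Atg5f/f;Vav. It lies at base 2251 of the transcript, outside the part that is deleted, and checks nothing about the deletion. All 8 markers of the LSK gate were detected, and their summed level was 7.39 to 7.51 in control and 6.96 to 7.56 in Atg5f/f;Vav. Of these, Ly6a, the gene of Sca1, was higher in Atg5f/f;Vav by 1.57 (limma adjusted p = 0.0062) and Ptprc was called lower (-0.34, limma adjusted p = 0.04997). Erythroid markers summed to 8.46 to 9.50 in control and 7.17 to 7.49 in Atg5f/f;Vav, with 4 of 8 measured called lower and 2 higher. The lower were Hba-a1, Hbb-b1, Hbb-bt and Slc4a1 (-2.29 to -1.22), and the higher were Klf1 (2.95) and Car1 (3.80). Stromal and endothelial markers summed to 3.33, 5.32 and 4.90 in control and to 2.50 to 3.13 in Atg5f/f;Vav, with 4 of 7 lower and 0 higher, and Cdh5 was well above background on 0 of 6 arrays. Of 8 neutrophil markers, 5 were called lower (S100a8, S100a9, Ltf, Ngp and Camp) and 1 higher (Mpo), and their sum was 7.43 to 8.09 in control and 7.73 to 8.05 in Atg5f/f;Vav. Megakaryocyte markers had 2 of 5 lower and 1 higher, with sums of 2.58 to 2.88 and 2.41 to 2.53. Among the lower calls, Col1a1 (stromal) and Ppbp (megakaryocyte) were well above background on 3 control and 0 Atg5f/f;Vav arrays. Both met the filter through the control arrays alone. The part of all these cell types in the results below was not tested. In bulk samples, fewer cells of a type and less RNA per cell cannot be told apart. All arrays shared 1 slide, with control in row 1 and Atg5f/f;Vav in row 2, so row and genotype cannot be told apart.

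Among the probes taken by exact symbol, those of Snhg3 and Snhg5 were higher in Atg5f/f;Vav LSK cells. No tested probe of the other snoRNA hosts or of Neat1 by that rule passed the threshold. Outside the rule, the NEAT1 probe was called lower (-0.65, limma adjusted p = 0.015). The probe in the stretch that the Gas5 junction probe skips was called higher (0.90, limma adjusted p = 0.045). Of the 13 probes, 11 were well above background on at least 3 arrays and were tested. The other 2, 1 each of Snhg8 and Snhg12, were not well above background on any array. By limma with Benjamini-Hochberg adjustment over all 32073 probes tested, 3 of the 11 were called higher and 0 lower (5 had an unadjusted p below 0.05). This is 27.3% of them, against 34.4% of all probes called in either direction and 17.3% called higher. By gene, 2 of 8 were called higher and 0 lower, against 18.7% of all 20777 genes called higher and 15.3% lower. All 11 changes were positive, with a median of 0.35 (range 0.070 to 0.97) beside a median of -0.061 over all tested probes. The signs depend on the scaling. After quantile normalisation both Gas5 probes (-0.094 and -0.076) and the Snhg8 probe (-0.29) were negative. The same probes were negative with the percentile over probes detected on all arrays. In 8 of the 11 the groups did not overlap, and Atg5f/f;Vav was the higher in each, beside 55.4% of all probes whose groups did not overlap in either direction. These counts depend on the control arrays: without control replicate 1, or without control replicate 2, 0 of the 11 probes passed, while all 11 changes stayed positive. Calls over all 32073 probes fell as well, from 11024 to 330 and 251 in turn, so the loss is not particular to these RNAs.

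**Figure D1:**
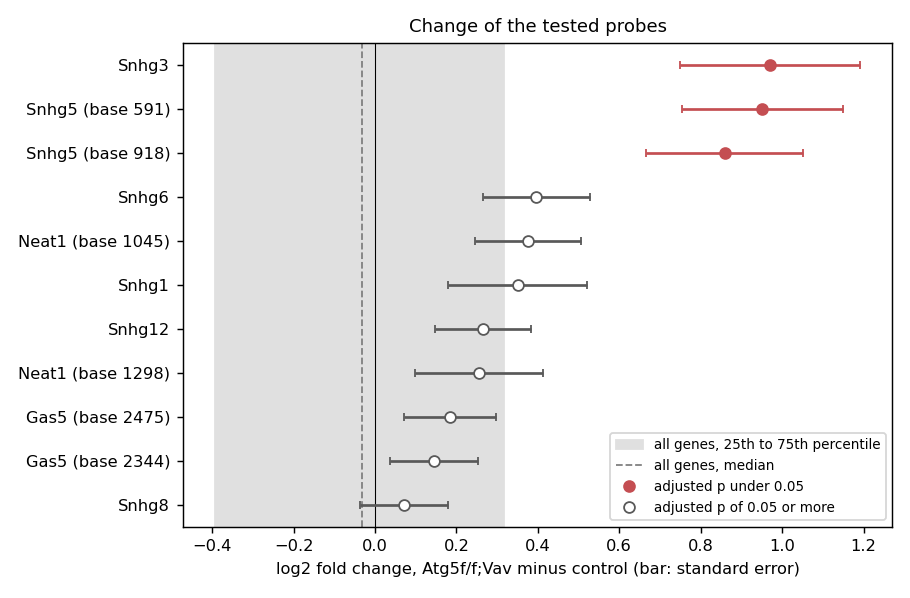
Log2 fold change (Atg5f/f;Vav minus control, horizontal axis) of the 11 tested probes with its standard error. The base given for RNAs with several probes is the probe's start on the transcript that the array files name for it. Both Snhg5 probes are named on different sequences, so their bases are not positions on the same transcript. Filled points passed an adjusted p of 0.05. The grey band holds the middle of all genes from -0.39 to 0.32, and the dashed line is their median of -0.032. Snhg3 and both Snhg5 probes lie farthest right, at 0.86 to 0.97, and Snhg6, the upstream Neat1 probe and Snhg1 lie just right of the band.

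Snhg3 hosts H/ACA snoRNAs of the Snora73 family. Its probe read 3.24, 3.48 and 3.44 in control and 3.97, 4.27 and 4.83 in Atg5f/f;Vav. Every Atg5f/f;Vav array lay above every control array, and the third stood highest. The difference was 0.97 ± 0.22 (SE, n = 3 arrays a group, limma adjusted p = 0.021), or 1.96-fold. It was 0.73 (adjusted p = 0.019) without Atg5f/f;Vav replicate 3, and the adjusted p rose to 0.078 without control replicate 1 and 0.076 without control replicate 2. After quantile normalisation the difference was 0.64 (adjusted p = 0.052). A probe named Snora73a lies at chr4:131908690-131908749, on the same strand as the Snhg3 probe. Whether this probe reads the mature snoRNA or its unspliced host was not tested. It read 5.95, 6.16 and 5.99 in control and 5.69, 6.11 and 6.43 in Atg5f/f;Vav, and these overlap. Its change of 0.044 ± 0.19 (limma adjusted p = 0.87) was 0.93 below that of Snhg3. Taken array by array, the gap between both probes was 2.55 to 2.71 in control and 1.60 to 1.84 in Atg5f/f;Vav, with no overlap. An exact 2-sided permutation test of that gap gave p = 0.1, the smallest that 3 arrays against 3 allow, and 0.2 after adjustment over 8 probe pairs. This pair was chosen after its values were seen.

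Snhg5 hosts C/D snoRNAs and has probes 1175 bases apart. The downstream probe read 3.04, 3.22 and 3.32 in control and 3.83, 3.86 and 4.47 in Atg5f/f;Vav, a difference of 0.86 ± 0.19 (limma adjusted p = 0.021) or 1.81-fold. The upstream probe read -2.60, -2.29 and -2.62 in control and -1.65, -1.84 and -1.17 in Atg5f/f;Vav, a difference of 0.95 ± 0.20 (limma adjusted p = 0.018) or 1.93-fold. On both probes the groups were apart, and the third Atg5f/f;Vav array was again the highest. The changes of both probes differed by -0.093 (exact permutation p = 0.6). Between them, 267 bases downstream of the first, lies a probe named only TC1654900 (chr9:88416831-88416890, chosen after its values were seen), which changed by 0.93 ± 0.23 (limma adjusted p = 0.025). Its adjusted p was 0.082, 0.083 and 0.061 without control replicate 1, 2 and 3 in turn. After quantile normalisation the downstream probe changed by 0.54 (adjusted p = 0.046). Without control replicate 1 the adjusted p was 0.078 and 0.070 for the downstream and upstream Snhg5 probes, and without control replicate 2 it was 0.077 and 0.069.

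Snhg6 hosts C/D snoRNAs. Its probe at chr1:9932175-9932234 (minus strand) read 3.88, 3.96 and 4.16 in control and 4.32, 4.31 and 4.56 in Atg5f/f;Vav. The groups did not overlap, and the lowest Atg5f/f;Vav array lay just above the highest control. The difference of 0.40 ± 0.13 missed the threshold (limma adjusted p = 0.055). The call depends on the processing, since the adjusted p was 0.032 after normexp background correction, 0.046 with the deposited values, 0.044 among probes detected on all 6 arrays, 0.025 with an intensity trend and 0.043 with the replicate number as a block. It was 0.69 after quantile normalisation, where the change was 0.054, and 0.19 with the percentile over probes detected on all arrays, where the change was also 0.19.

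Snhg1 is a host of several C/D snoRNAs. Its probe at chr19:8798913-8798972 (plus strand) read 1.45, 1.29 and 1.55 in control and 1.68, 1.55 and 2.11 in Atg5f/f;Vav. The groups nearly touched, and the third Atg5f/f;Vav array stood apart from the other two. The difference was 0.35 ± 0.17 (limma adjusted p = 0.14). It was 0.19 without that array, 0.20 after quantile normalisation and 0.14 with the percentile over probes detected on all arrays.

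Snhg12 carries both C/D and H/ACA snoRNAs. Its tested probe at chr4:131866864-131866922 (plus strand) read 2.35, 2.44 and 2.47 in control and 2.58, 2.63 and 2.85 in Atg5f/f;Vav. The groups did not overlap, and the difference of 0.26 ± 0.12 did not pass (limma adjusted p = 0.12). It fell to 0.033 after quantile normalisation and to 0.058 with the percentile over probes detected on all arrays. Snhg8 hosts an H/ACA snoRNA. Its tested probe at chr3:123210508-123210567 (minus strand) read 5.27, 5.45 and 5.46 in control and 5.41, 5.47 and 5.50 in Atg5f/f;Vav. The groups overlapped, and the change of 0.070 ± 0.11 (limma adjusted p = 0.63) was the smallest of the 11. It turned to -0.29 after quantile normalisation and to -0.14 when the 75th percentile was taken over probes detected on all arrays.

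**Figure D2:**
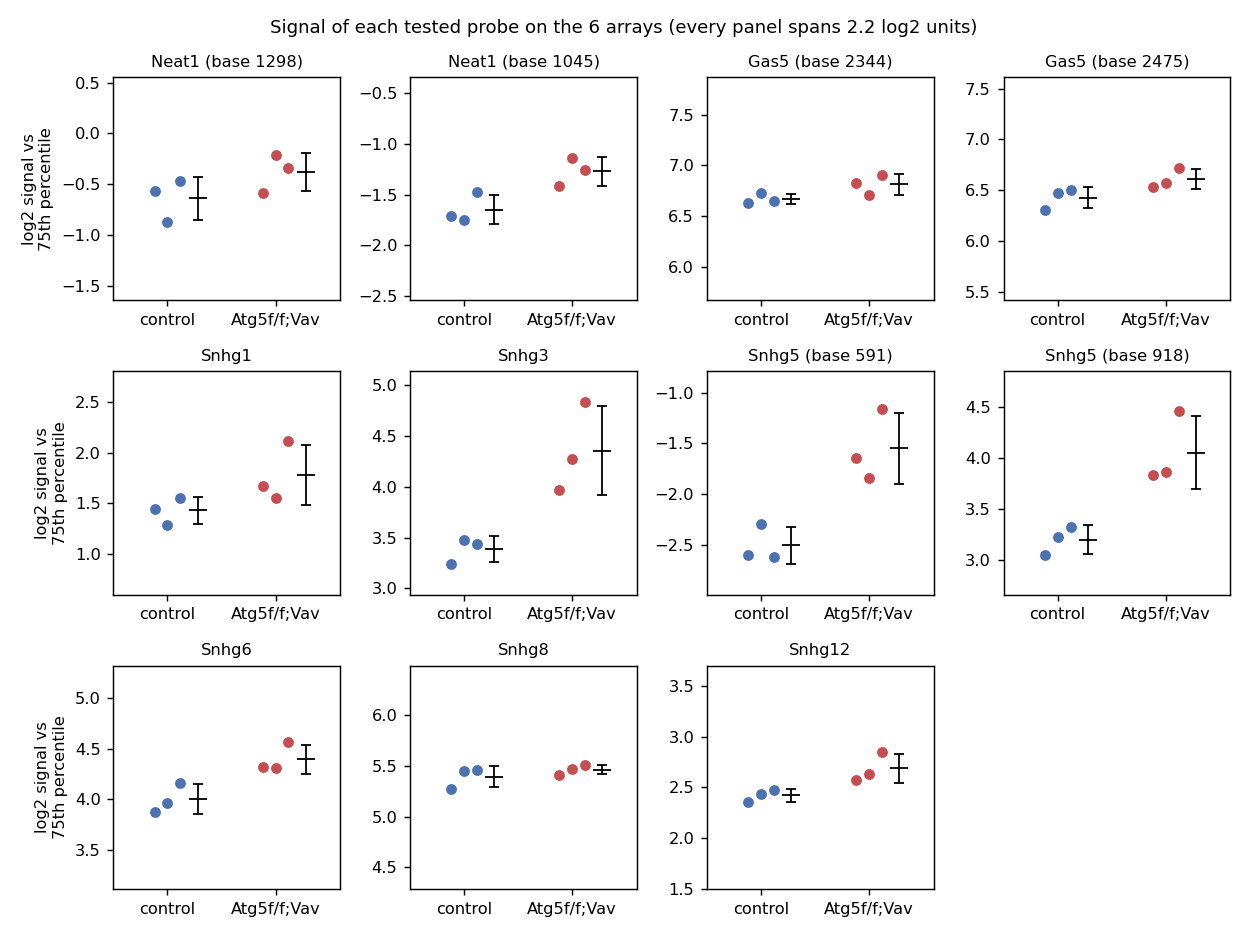
Log2 signal relative to each array's 75th percentile (vertical axis) of the 11 tested probes on the 3 control and 3 Atg5f/f;Vav arrays, with each group's mean and SD in black. Every panel has the same span, the panel's level has no meaning between probes, and the third Atg5f/f;Vav array is the highest on 9 of the 11 probes.

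Gas5 carries C/D snoRNAs in its introns and is a much studied TOP transcript. The junction probe read 6.63, 6.73 and 6.65 in control and 6.82, 6.71 and 6.91 in Atg5f/f;Vav, with overlap, a difference of 0.15 ± 0.11 (limma adjusted p = 0.32). The second probe read 6.31, 6.47 and 6.50 in control and 6.53, 6.57 and 6.72 in Atg5f/f;Vav, without overlap, a difference of 0.18 ± 0.11 (limma adjusted p = 0.24). Both Gas5 changes turned negative under 2 scalings, to -0.094 and -0.076 after quantile normalisation and to -0.061 and -0.022 with the percentile taken over probes detected everywhere. The latter scaling moved the median of all probes from -0.061 to -0.27. The changes of both probes differed by 0.039 (exact permutation p = 0.7).

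The probe in the stretch that the Gas5 junction probe skips read -0.92, -0.66 and -0.75 in control and -0.36, -0.04 and 0.77 in Atg5f/f;Vav. The groups were apart, and the third Atg5f/f;Vav array stood well above the other two. It rose by 0.90 ± 0.28 (limma adjusted p = 0.045), and by 0.58 (adjusted p = 0.031) without that array. Its change was 0.76 above that of the junction probe (exact permutation p = 0.1, the smallest possible, 0.2 adjusted over 8 pairs). It did not pass without control replicate 1, 2 or 3 (adjusted p of 0.13, 0.11 and 0.096 in turn) or without Atg5f/f;Vav replicate 2 (0.070). On the opposite strand, a probe 1444 bases upstream (chr1:162966197-162966256) rose by 0.56 ± 0.17 (limma adjusted p = 0.042). On the same strand, a probe 2495 bases upstream changed by 0.29 ± 0.12 and was not called (limma adjusted p = 0.10). Both of these upstream probes were also added after the values were seen.

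Neat1 was read by both of its probes in the first part of the transcript. The upstream probe read -1.71, -1.75 and -1.48 in control and -1.41, -1.13 and -1.26 in Atg5f/f;Vav, a difference of 0.38 ± 0.13 without overlap (limma adjusted p = 0.062). It was 0.51 after quantile normalisation (adjusted p = 0.036), where it passed, and 0.17 with the percentile over probes detected on all arrays (adjusted p = 0.25). The downstream probe read -0.57, -0.88 and -0.47 in control and -0.59, -0.22 and -0.34 in Atg5f/f;Vav, a difference of 0.25 ± 0.16 with overlap (limma adjusted p = 0.23). The latter was 0.048 with that percentile. Both changes were positive, and they differed by -0.12 (exact permutation p = 0.3).

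The NEAT1 probe read 2.49, 2.29 and 2.23 in control and 1.73, 1.68 and 1.65 in Atg5f/f;Vav. All Atg5f/f;Vav arrays were below all control arrays, and their spread was small. It fell by 0.65 on the log2 scale (SE 0.11, limma adjusted p = 0.015), and its adjusted p was 0.068 without control replicate 1 and 0.069 without control replicate 2. Its change was 1.03 below that of the upstream and 0.90 below that of the downstream Neat1 probe. In both cases the array-by-array gaps of the groups did not overlap, with an exact permutation p of 0.1, the smallest possible, and 0.2 adjusted over 8 pairs. Over the 6 arrays left out in turn, the gap to the upstream probe ranged from -1.16 to -0.92.

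A probe 9835 bases downstream of the first Neat1 probe on the same strand (chr19:5834543-5834602) also fell, by 0.56 on the log2 scale (SE 0.14, limma adjusted p = 0.025). It did not pass without control replicate 1 (adjusted p = 0.097), control replicate 2 (0.084), Atg5f/f;Vav replicate 1 (0.0502) or Atg5f/f;Vav replicate 2 (0.068). A probe named by the interval chr19:5798135-5800557, 46122 bases downstream on that strand, read 4.46, 4.77 and 4.42 in control and 3.48, 3.92 and 3.86 in Atg5f/f;Vav. It fell by 0.79 on the log2 scale (SE 0.17, limma adjusted p = 0.018), with 0.069 without control replicate 1 and 0.074 without control replicate 2. The array's files give no gene for either, and both were chosen after their values were seen. Malat1 is the neighbour of Neat1, and whether the more distant probe reads Malat1 was not tested. Opposite-strand probes 587, 674 and 913 bases upstream of the first Neat1 probe changed by 0.26, 0.0031 and -0.11. Another, 47144 bases downstream, changed by -0.39. These 4 were not called (limma adjusted p of 0.21, 0.99, 0.62 and 0.15 in turn), and none lay near the probe 9835 bases downstream.

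**Figure D3:**
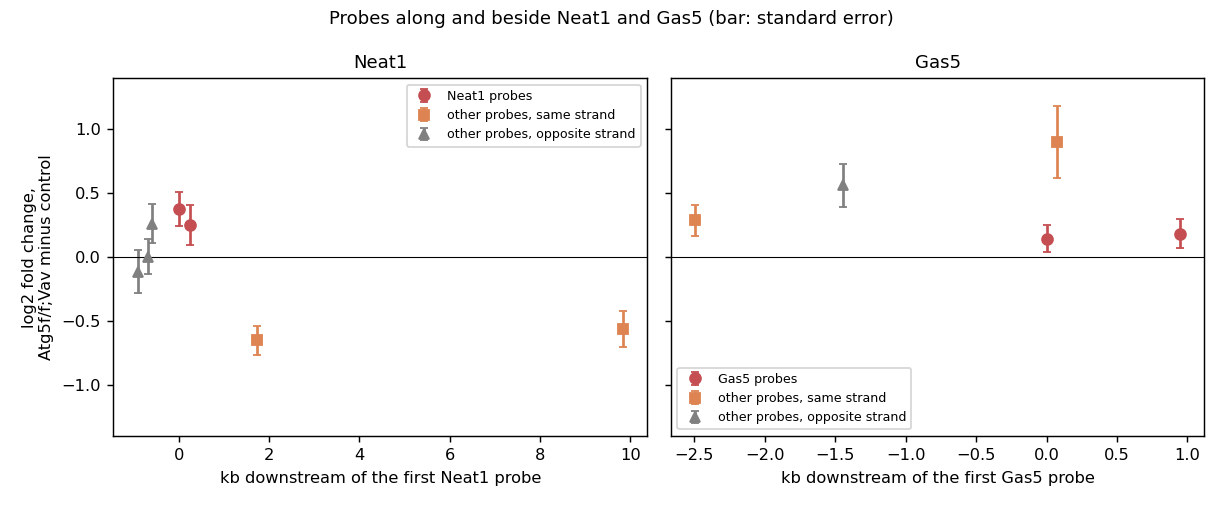
Log2 fold change (vertical axis, with standard error) of tested probes against their distance in kb downstream of the first Neat1 probe (left) and the first Gas5 probe (right). The Neat1 probes lie above 0 (0.38 and 0.25) and the same-strand probes 1724 and 9835 bases downstream below it (-0.65 and -0.56). The same-strand probe within the Gas5 junction span stands at 0.90.

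The order of the changes was Snhg3, Snhg5, Snhg6, Neat1, Snhg1, Snhg12, Gas5 and Snhg8, each taken by its largest probe change. Apart from the step from Snhg5 to Snhg6, neighbours in this order differed by less than the larger of their standard errors, and differences between RNAs were not tested. Across the 6 arrays, Snhg3, Snhg5 and Snhg12 varied closely together (r of 0.99 for each of the 3 pairs), and Snhg6 went with them (r of 0.94 to 0.97). Neat1 and Gas5 had an r of 0.17. These r describe 6 arrays that share the group difference and carry no test. The genes most like each RNA by the same measure, among 20771, were C1d for Snhg5 (r = 0.999), Mettl1 for Snhg3 (r = 0.999), Cbx3 for Snhg6 (r = 0.999), Birc6 for Snhg12 (r = 0.999), Dnajc24 for Snhg1 (r = 0.995), Gm7160 for Gas5 (r = 0.993), Bzrap1 for Snhg8 (r = 0.982) and Ppt2 for Neat1 (r = 0.979). Such values were common for some of the RNAs and rare for others: 2329 genes had an r above 0.95 with Snhg5, but only 7 with Snhg8 and 24 with Neat1.

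The start of each snoRNA host was read from RefSeq (GRCm38.p6), which gave 7 start windows for 6 hosts, 2 of them for Gas5. Snhg6 was not matched. Each window holds 10 bases before the annotated start and 40 from it on. A run of at least 4 C or T bases that lies in the transcript and begins by its base 5, with bases before the start not counted, was present in 5 of the 7 windows, beside 24.2% of 32851 windows of the same length. Capitals mark the run, and the sequences are shown because 5' pyrimidine runs define TOP transcripts. The Snhg5 window, whose RNA was called higher, had no run by this rule, nor had the first Gas5 start, which is not printed. The Snhg5 window does hold the pyrimidine stretch ttctttt, which begins after base 5 and so was not counted. Snhg12 and Snhg8, which were not called, had runs of 6 bases each. The windows lie at chr4:132353647-132353696 (minus) for Snhg3, chr9:88522858-88522907 (minus) for Snhg5, chr1:161035156-161035205 (plus) for the second Gas5 start, chr19:8723477-8723526 (plus) for Snhg1, chr3:123508297-123508346 (minus) for Snhg8 and chr4:132308668-132308717 (plus) for Snhg12.
Snhg3: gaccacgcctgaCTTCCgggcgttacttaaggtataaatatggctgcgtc
Snhg5: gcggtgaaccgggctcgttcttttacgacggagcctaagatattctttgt
Gas5: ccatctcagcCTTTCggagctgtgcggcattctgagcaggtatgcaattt
Snhg1: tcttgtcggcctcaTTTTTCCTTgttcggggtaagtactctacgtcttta
Snhg8: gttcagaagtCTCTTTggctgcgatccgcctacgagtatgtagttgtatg
Snhg12: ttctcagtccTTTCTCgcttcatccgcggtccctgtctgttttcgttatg

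The other genes of these pathways were taken as lists, with 1 probe a gene, and all counts are by limma with adjustment over all probes. They stand beside 18.7% of all genes called higher and 15.3% called lower, and no list was tested as a set. Of the proteins that build snoRNA particles, 15 of 15 measured C/D and H/ACA core proteins and assembly factors were called higher, with a median of 0.70 (range 0.48 to 1.29). Among them were Nolc1, a chaperone of snoRNA particles in the nucleolus and Cajal bodies (1.29 ± 0.24, adjusted p = 0.016), the H/ACA core protein Nhp2 (1.18, adjusted p = 0.012) and Nhp2l1, which binds C/D snoRNAs (0.96, adjusted p = 0.018). Without control replicate 1, or without control replicate 2, no gene of any list passed, beside 330 and 251 of all 32073 probes.

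Probes named for the small RNAs were also read. Whether they read the mature small RNAs or unspliced hosts was not tested. Of 13 probes for snoRNAs and Cajal body RNAs, 0 rose and 2 fell (15.4%, beside 15.3% of all genes called lower), with a median of 0.076. Snord17 changed by -0.65 (adjusted p = 0.023) and Snora81 by -0.53 (adjusted p = 0.024). Protein-coding snoRNA hosts were called higher in 7 of 17 (41.2%, beside 18.7% of all genes) and lower in 0, with a median of 0.28, led by Rcc1, the exchange factor of Ran (1.05, adjusted p = 0.015), the nucleolar GTPase Gnl3 (1.03, adjusted p = 0.017) and the chaperonin subunit Tcp1 (0.93, adjusted p = 0.016). The probes of Tcp1 differed, from 0.032 to 0.93. Among 8 other noncoding snoRNA hosts, 1 rose, Snhg4 (0.71, adjusted p = 0.046), and 1 fell, Snhg14, an RNA of an imprinted locus. Snhg14 was not well above background on any Atg5f/f;Vav array, so it met the filter through the control arrays alone. Its call rests on Atg5f/f;Vav values not well above background, and its p is not given. It was at least 2.70-fold lower there, a bound set against the lowest signal well above background.

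Of the factors that act on TOP transcripts, 5 of 10 were called higher (50%, beside 18.7% of all genes) and 0 lower, including the TOP-binding protein Larp1 (0.77, adjusted p = 0.024), the cap-binding inhibitor Eif4ebp1 (0.76, adjusted p = 0.023) and the cap-binding protein Eif4e (0.71, adjusted p = 0.019, with its other probe at 0.11). Translation genes with TOP sequences were called higher in 7 of 17 (41.2%) and lower in 0, with a median of 0.24, among them Eef1d (0.61), Btf3 (0.53) and Eef1g (0.50). Nonsense-mediated decay factors were called higher in 5 of 16 (31.2%) and lower in 0, with a median of 0.20. The largest were the exon junction proteins Magohb (0.91), Eif4a3 (0.79) and Rbm8a (0.67).

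Paraspeckle proteins, the partners of Neat1, were called higher in 5 of 16 (31.2%, beside 18.7% of all genes) and lower in 1 (6.25%, beside 15.3%). Tardbp (0.63), Rbm14 (0.61) and Nudt21 (0.52) rose and Sfpq changed by -0.40 (adjusted p = 0.027). Probes disagreed for Tardbp (-0.31 to 0.63) and Sfpq (-0.95 to 0.40). Speckle and splicing proteins linked to Malat1 were called higher in 6 of 17 (35.3%) and lower in 0, with Srsf7 (0.58) and U2af2 (0.54) the largest. Among 20 further noncoding RNAs, 8 were called lower (40%, beside 15.3% of all genes) and 1 higher (5%, beside 18.7%), with a median of -0.35. Most of the 20 are long, but a few are short structured RNAs, and the 8 are not all long. H19 (-1.61, adjusted p = 0.021), Mir99ahg (-1.55, adjusted p = 0.039) and Peg13 (-0.74, adjusted p = 0.0496) fell. Pvt1, a neighbour of Myc, rose by 2.55 (adjusted p = 0.016), with its other probe at 1.73.

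**Figure D4:**
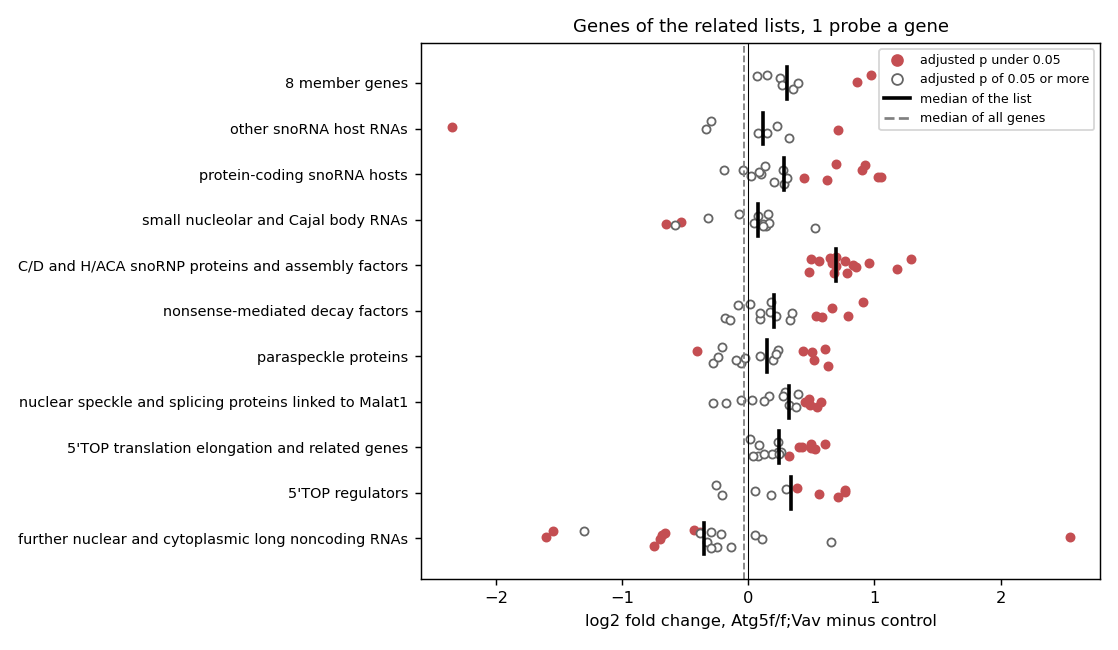
Log2 fold change (horizontal axis) of the measured genes of each list, 1 point a gene, filled where the adjusted p was under 0.05, with the list's median as a black bar and the median of all genes dashed. All 15 snoRNA particle proteins lie right of 0.48, and the probes named for small RNAs have a median of 0.076. Most further noncoding RNAs lie left of 0.

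Of the nearest protein-coding neighbours of the RNAs, by RefSeq order, 13 were measured, of which 4 were called higher (30.8%, beside 18.7% of all genes) and 2 lower (15.4%, beside 15.3%). Beside Snhg1, Wdr74, a ribosome assembly factor (1.21 ± 0.16, limma adjusted p = 0.012), and the amino acid transporter subunit Slc3a2 (0.78 ± 0.20, limma adjusted p = 0.027) were both higher, although Snhg1 itself did not pass. The probes of Slc3a2 differed, from 0.049 to 0.94. Rcc1, next to Snhg3, rose by 1.05 (limma adjusted p = 0.015), with its probes from 0.50 to 1.05. This is the same Rcc1 value as among the protein-coding snoRNA hosts above, not a second observation. Beside Gas5, Zbtb37 fell by 0.80 on the log2 scale (SE 0.15, limma adjusted p = 0.017). Its other probe was at -0.41 and was not called (limma adjusted p = 0.14). Rab42, next to Snhg12, fell by 0.58 (SE 0.17, limma adjusted p = 0.039), and Trnau1ap on its other side did not pass (0.30 ± 0.10, limma adjusted p = 0.055). The neighbours of Snhg5, Syncrip (0.15, adjusted p = 0.46) and Zfp949 (-0.45, adjusted p = 0.072), did not pass by limma, nor did Frmd8 (-0.10, adjusted p = 0.63), a neighbour of the Neat1 and Malat1 locus.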

How the data were processed

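RNA of LSK cells from 3 control and 3 Atg5f/f;Vav samples was hybridised to 1-colour Agilent arrays. Deposited by the authors were 1 intensity a spot, background-corrected with Feature Extraction 12.0.3.1, its quality flags, and a table of normalised signal. Spots flagged as outliers were left out and replicate spots averaged. Log2 intensity minus each array's 75th percentile over non-control spots was tested by lmFit and eBayes of limma 3.58.1 (R 4.3.3; 2-sided, Benjamini-Hochberg, threshold 0.05) for probes well above background on at least 3 arrays. A gene in a list was represented by its tested probe with the highest mean signal, and named genes were all members and measured neighbours, at most 3 each way of a list, and the genes most alike. Differences between probes used an exact permutation test over arrays. The precision is limited by the number of arrays. Steps were tested on simulated data. The RNAs and lists were chosen with earlier results of these data known. Alternatives were normexp (offset 50), quantile normalisation, the deposited signal, a percentile over probes detected on every array, outliers kept, other filters, an intensity trend, a replicate block, the methods' t-test and each array left out. Start windows came from RefSeq promoter sequences (GRCm38.p6), and coordinates of probes from the array files (mm9). Values of some neighbours and 1 probe sequence are not reported here.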

Additional observations from a re-analysis of the deposited data

How the results depend on the processing

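The count of tested probes called (3 of 11) was 3 or 4 under the other scalings, filters and fits, except 1 with no filter on dim probes, where more probes entered the adjustment, and 0 with the methods' t-test after adjustment. The RNAs called (2) were 1 after quantile normalisation, 0 without the filter and 0 with the methods' t-test. Genes called over all lists (63 of 147) were 23 without the filter and 0 with the methods' t-test, which called 0 of 32073 probes after adjustment and 13541 at an unadjusted p below 0.05. With each array left out, the counts ranged from 0 to 3 probes, 0 to 2 RNAs and 0 to 58 list genes, and the calls over all probes were 330 without control replicate 1 and 251 without control replicate 2, against 11024.

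The difference between the Snhg5 probes turned to 0.16 under normexp and ranged from -0.18 to 0.028 with each array left out, that between the Gas5 probes from -0.000276 to 0.084. TC1654900 minus Snhg5 turned to -0.057 under normexp and ranged from -0.0085 to 0.14. Gas5 turned to -0.094 and -0.076 and Snhg8 to -0.29 after quantile normalisation, and to -0.061, -0.022 and -0.14 with the percentile over probes detected on all arrays, which split the calls into 3371 higher and 10088 lower against 5540 and 5484. The cause was not tested. Probes outside the member symbols were added after seeing the data.

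Replicate numbers are shared between the groups, but same-numbered arrays did not all deviate together (r of -0.07, 0.19 and 0.11). With the replicate number as a block, 4 probes, 3 RNAs and 57 list genes were called. A slide block could not be fitted.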
